A study of Talpa occidentalis and Mus musculus with 35 samples.

Results

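The genes of the TGF-beta, BMP, activin and AMH pathway were described in the gene models of the Iberian mole, Talpa occidentalis, on its talOcc3 assembly. Members were taken by name: the TGFB, BMP, GDF and inhibin or activin ligands, AMH and NODAL, their receptors, the SMADs, and the inhibitors FST, FSTL3, LEFTY1 and LEFTY2. Of 56 symbols looked for, 54 had a model, at 56 loci, out of 16196 symbols on 21490 named gene lines. They comprised 29 ligands, 13 receptors, 6 SMADs, 5 inhibitors (counting the inhibitory SMAD6 and SMAD7) and BMP1, a protease that shares the BMP name.

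The study sequenced polyA RNA from gonads in 35 libraries of 16 groups, 19 libraries from wild-type moles and 16 from mice. Mole groups were ovotestis and testis of embryonic day 15 (2 libraries each); testis and the separated ovarian and testicular parts of the ovotestis were taken at postnatal day 7 (3 each) and from adults (2 each). Mouse groups of 2 libraries were Fgf9 mutant ovaries and wild-type B6 ovaries at embryonic day 13.5, and ovary and testis of wild-type CD1 mice at embryonic day 13.5, postnatal day 7 and 10 weeks. The strain labels of the mutant ovaries read C57BL/8 and C57BL/9 and those of the B6 ovaries C57BL/6 and C57BL/7. Expression was not analysed here, since the values used were gene models with no value per library; sequencing depth is therefore unknown, and the error given for a median or a share is its 95% interval over genes.

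Ligands of this family are made as precursors whose C-terminal part is released as a paired growth factor. They bind type I and type II receptors, both serine/threonine kinases, and the type I kinase phosphorylates receptor SMADs (SMAD1, SMAD5 and SMAD9 for BMPs and AMH, SMAD2 and SMAD3 for TGF-beta and activins), which join SMAD4 and enter the nucleus. In the gonad, AMH from Sertoli cells removes the Müllerian ducts of males, inhibins and activins act on follicle-stimulating hormone, and the oocyte factors BMP15 and GDF9 act on granulosa cells. Female moles of this genus carry ovotestes, gonads with an ovarian and a testicular part.

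The mole models were close to the mouse in coding length. The median member had 99.7% of the coding bases of the longest mouse transcript (interval 98.4% to 100.3%), against 99.5% over the 14328 symbols with a mouse coding gene. The median ligand had the mouse length, while receptors had a median of 98.7%, SMADs 99.7% and inhibitors 99.7%. Coding length lay within 10% of the mouse in 31 members, or 57.4%, where 51.6% of all symbols did. It was under 50% of the mouse in 4 members, or 7.41% (all symbols 5.66%), between 50% and 90% in 9, or 16.7% (22.6%), and over 110% in 10, or 18.5% (20.1%). With the mouse transcript nearest in length in place of the longest, 3 of the 4 members under 50% exceeded it: BMP6 had 102%, ACVR1C 198% and SMAD6 211%. Against the longest transcript the members were spread over these classes much as all genes were, and the differences between roles lay in single genes.

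**Figure D1:**
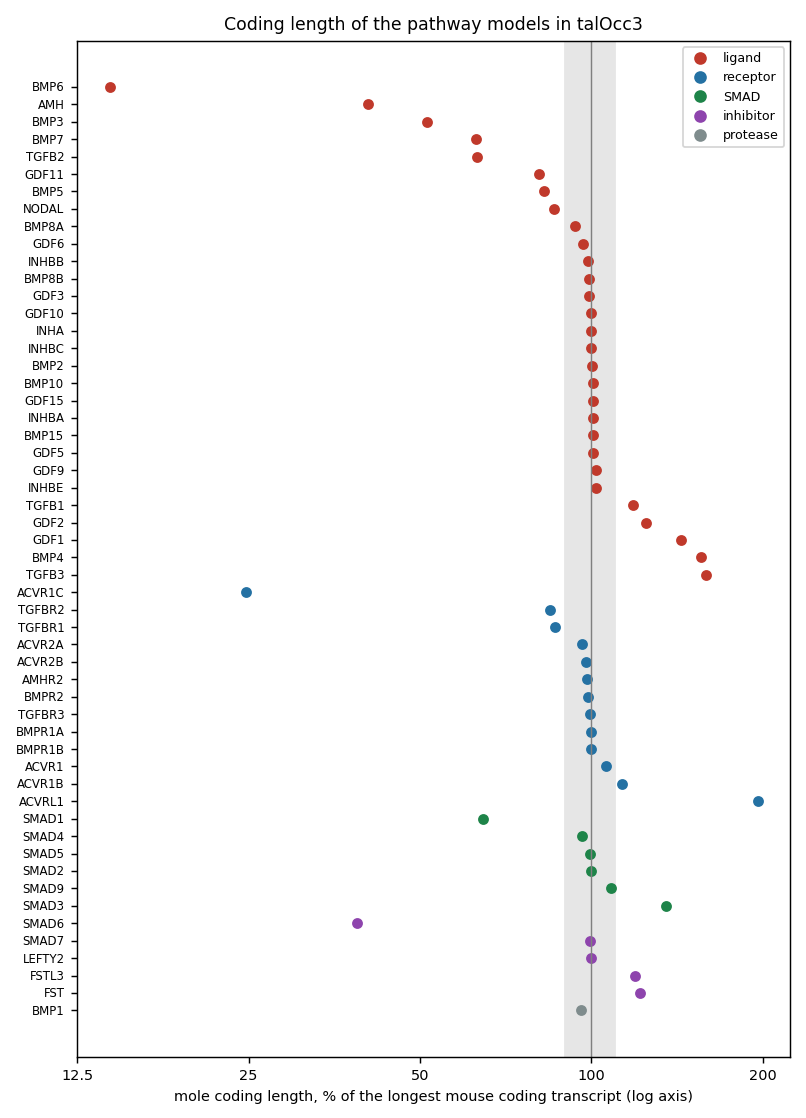
Coding length of each mole model as a percentage of the longest mouse coding transcript, on a log axis, ordered by role and value; the grey band runs from 90% to 110%. BMP6, ACVR1C, SMAD6 and AMH lie under 50%, and ACVRL1, at 196%, lies highest.

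AMH, the anti-Müllerian hormone, had a short model. It lay on scaffold 14 at 6325712 to 6327173, plus strand, with 4 coding exons of 415, 143, 39 and 78 bases, where mouse Amh (chromosome 10, coding span 80805248 to 80807648) had 5 exons of 403, 143, 109, 160 and 850 bases. The total was 675 coding bases in the mole model and 1665 in the mouse gene, or 40.5%. Of the mole model 78.5% aligned to the transcript it was named for, with 64 bases outside at the 5′ end. At the 3′ end 81 bases lay outside, the whole last exon of 78 bases among them. The exon of 143 bases was the same length in both, and the mole model held none near the length of the last mouse exon, which codes for the growth factor part. Downstream of AMH came OAZ1, 17.8 kb away in the mole, whereas in the mouse JSRP1 lay 0.923 kb downstream and OAZ1 after it. JSRP1 also stands between AMH and OAZ1 in the later mole assembly, and no talOcc3 model carried its name. Upstream, SF3A2 was 0.217 kb away in the mole and 0.433 kb away in the mouse.

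The inhibin and activin subunits were of mouse length but not all of mouse structure. INHA, the alpha subunit that makes inhibin, had exons of 268 and 833 bases, 1101 in all, against 271 and 830, the same total, in the mouse. INHBA, the beta A subunit, had 388 and 896 bases, against 388 and 887 (100.7%). INHBB, the beta B subunit, had 98.8% of the mouse length in 4 pieces of 7, 100, 341 and 773 bases, against 460 and 776. INHBC had 313 and 746 bases, against 316 and 743. INHBE, its neighbour, had 1074 coding bases in 9 exons, against 1053 in 2 exons, and only 14.8% of the model aligned to the transcript it was named for. The INHBE length was near that of the mouse (102% of it), with no exon of exactly the same length. INHA, INHBB and INHBC had no such exon either, so its absence does not set INHBE apart. Of these subunits only INHBA had one, its exon of 388 bases.

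The oocyte ligands kept their simple structure. BMP15 had exons of 328 and 860 bases, against 322 and 857 in the mouse (100.8%), and GDF9 had 374 and 976, against 397 and 929 (101.8%). BMP2 had 343 and 845, against 343 and 842. BMP4, which like BMP2 patterns the early embryo and acts in germ cell formation in mice, had exons of 355, 803 and 750 bases, against 373 and 854. All 750 bases of its last exon lay 3′ of the part aligned to its named transcript, and with them BMP4 reached 156% of the mouse length.

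Of the 8 ligand models under 90% of the mouse length, 4 had an equal of the last mouse exon (BMP5, BMP7, TGFB2 and NODAL) and none of the first; AMH and GDF11 matched mouse exon 2 alone, and BMP3 and BMP6 matched no exon. BMP6, the ligand that controls hepcidin in iron balance, had 1 exon of 219 bases (scaffold 47, 1325555 to 1325773, minus strand), 14.3% of the mouse length, against 7 exons in the mouse. It was the 1 member with a single exon (1.85%, all symbols 8.77%). BMP3, a BMP antagonist in bone, had 534 and 192 bases (51.4%), against 310, 978 and 125. BMP7 (62.6%) matched mouse exons 4 to 7 and TGFB2 (63.0%) matched mouse exons 4 to 8. BMP5 (82.4%) matched exons 2 to 7. Over all 13 members under that length, receptors, SMADs and inhibitors included, the last mouse exon had an equal in 8, or 61.5% (31.8% of such models genome-wide), and the first in 0 (6.68%). A count of 0 in 13 allows a share of up to about 23.1%, taken as 3 of 13 and not as an exact binomial bound. With the mouse transcript nearest in length, 9 members rather than 13 were under 90%.

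Among the ligand models over 110% of the mouse, some had long stretches outside the aligned part and others had short ones. TGFB3 had 1974 coding bases, 159% of the mouse, and its first 903 bases lay outside the part aligned to its named transcript; TGFB1 (118%) had 528 such bases at its 5′ end. GDF1, which with NODAL sets the left-right axis, had 8 exons (1545 bases, 144%), against 2 in the mouse. Exons of 160, 181, 162, 148 and 110 bases stood in the same order in the GDF1 model and in mouse Cers1, a ceramide synthase gene next to Gdf1, and no talOcc3 model was named CERS1. Of the GDF1 model 89.6% aligned to its named transcript, with 159 bases outside at the 5′ end. GDF2 (124.5%) had 91.1% aligned, with 143 such bases. Under 90% of the model aligned to its named transcript in 19 of 54 members, or 35.2% (all symbols 36.0%), of which 12 were ligands, 2 receptors, 1 a SMAD and 4 inhibitors.

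GDF5 and LEFTY2 had several models, 2 of 54 symbols or 3.70% (exact binomial interval 0.452% to 12.7%), where 14.6% of all symbols did. The count was 1 when a locus needed more than 1 exon or at least 50% of the best score. GDF5, a ligand of joint formation, had its best model on scaffold 2 at 20738832 to 20742469, minus strand, with exons of 625 and 875 bases, against 613 and 875 in the mouse. The other GDF5 model was a single exon of 750 bases inside it on the plus strand (20739082 to 20739831), with 18.4% of the best model's score. Its identifier names the opposite-strand protein of human GDF5, and its alignment to the reference runs backwards, as in 24 models of the file. GDF7, a relative of GDF5 and GDF6, had no model. In the mouse and in the later mole assembly GDF7 stands between LDAH and HS1BP3; in talOcc3 these lay 42.6 kb apart on scaffold 9 with 0 models between them. A count of 0 covers the gene lines used here and says nothing of the genome.

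More of the mouse exon pattern was found in the receptors than in the ligands. BMPR1A and BMPR1B, type I receptors for BMPs, matched the mouse in every coding exon: 11 of 11 exons and 1599 bases for BMPR1A, 10 of 10 and 1509 bases for BMPR1B. SMAD2, which carries activin and TGF-beta signals, did so as well with 10 of 10 and 1404 bases, which made 3 of 54 members, or 5.56% (all symbols 5.65%). AMHR2, the type II receptor of AMH, had 11 exons and 1680 bases on scaffold 34 (98.4%), and 8 of its exons had the mouse length. Its exon 2 had 273 bases, against 183 in the mouse, and its last exon 174, against 294. ACVR2A, a type II activin receptor, matched 10 of 11 mouse exons and ACVR1, a type I receptor for BMPs, 8 of 9.

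Set beside the longest mouse transcript, ACVR1C had the lowest and ACVRL1 the highest coding length of the receptors; with the mouse transcript nearest in length, ACVR1C instead had 198%, above ACVRL1 at 196%. ACVR1C, the type I receptor also called ALK7, had exons of 109, 131 and 126 bases (24.7%), of which the last 2 matched mouse exons 8 and 9. TGFBR1 (86.3%) matched mouse exons 4 to 9 and TGFBR2 (84.5%) exons 6 to 8. ACVRL1, the endothelial type I receptor ALK1, had 14 exons and 2961 bases, 196% of the mouse, with 1307 bases 5′ of its aligned part and 5 exons of the mouse length.

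An exon of 131 bases recurred in 9 of the 13 receptors, all 7 type I receptors and the type II receptors ACVR2A and ACVR2B. Over all symbols, 5.41% had a coding exon of that length. The 9 mouse genes have an exon of that length too, and its mouse sequence, chosen for display after the lengths were seen, is shown here for 5 receptors because the talOcc3 sequence was not used. It lies in the part of the gene that codes for the kinase. Capitals mark bases identical in all 7 type I receptors, or in both type II receptors.
BMPR1A, GRCm38 chr14:34414760-34414890, minus strand, coding exon 10 of 11: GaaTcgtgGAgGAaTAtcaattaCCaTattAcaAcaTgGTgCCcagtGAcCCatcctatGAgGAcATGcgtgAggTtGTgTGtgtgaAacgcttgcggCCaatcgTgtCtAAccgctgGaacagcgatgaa
BMPR1B, GRCm38 chr3:141842885-141843015, minus strand, coding exon 9 of 10: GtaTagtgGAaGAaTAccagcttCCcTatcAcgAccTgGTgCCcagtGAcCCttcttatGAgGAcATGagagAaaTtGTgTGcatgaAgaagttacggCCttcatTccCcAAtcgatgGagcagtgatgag
TGFBR1, GRCm38 chr4:47406922-47407052, plus strand, coding exon 8 of 9: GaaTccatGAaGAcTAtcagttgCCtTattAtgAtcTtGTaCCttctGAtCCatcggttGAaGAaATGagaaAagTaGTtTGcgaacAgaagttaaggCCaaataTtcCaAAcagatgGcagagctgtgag
ACVR2A, GRCm38 chr2:48898478-48898608, plus strand, coding exon 10 of 11: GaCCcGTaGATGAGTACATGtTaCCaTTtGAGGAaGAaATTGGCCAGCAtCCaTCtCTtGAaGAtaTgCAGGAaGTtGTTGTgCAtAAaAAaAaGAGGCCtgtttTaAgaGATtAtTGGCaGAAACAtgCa
ACVR2B, GRCm38 chr9:119432713-119432843, plus strand, coding exon 9 of 10: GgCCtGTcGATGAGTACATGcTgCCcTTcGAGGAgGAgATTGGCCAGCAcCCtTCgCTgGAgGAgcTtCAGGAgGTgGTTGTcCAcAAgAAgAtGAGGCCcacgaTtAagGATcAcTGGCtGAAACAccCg

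In all 9 mouse genes this exon began after the first base of a codon. Of its 131 bases, 43 were identical in all 7 type I receptors and 93 in both type II receptors. Pairs of type I receptors shared 52.7% to 74.8% of the bases, the highest being ACVR1B and TGFBR1, receptors for activin and TGF-beta. A type I and a type II receptor shared 42.7% to 52.7%. These are identities of mouse exons laid side by side without gaps.

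Several exon lengths were shared in order, though not always in unbroken runs, within the receptor and SMAD subfamilies of the mole. ACVR2A and ACVR2B shared 8 exon lengths in order (208, 110, 144, 144, 115, 139, 131 and 195 bases), where their mouse genes shared 7. BMPR1A and BMPR1B shared 7 (103, 97, 193, 298, 176, 131 and 126), as in the mouse. AMHR2 and BMPR2, the type II receptors for AMH and BMPs, shared 4 (231, 115, 148 and 137), also as in the mouse. ACVR1B and TGFBR1 shared 5, against 6 in the mouse, and ACVR1 and ACVRL1 shared 5, against 7. Of the 1431 member pairs, 12 shared at least 3 exon lengths, and all 12 joined members of the same role. Ligand pairs were among them, such as BMP5 and BMP8B (149, 111 and 150) and BMP5 and BMP7 (77, 111 and 150). The share of same-role pairs among the 1431 was not computed. Nor was the share of all gene pairs with as many lengths in common.

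The receptor SMADs split by branch in the same way. SMAD1, SMAD5 and SMAD9, of the BMP branch, shared final exons of 222, 257 and 144 bases, with an exon of 257 bases in 0.710% of all symbols. SMAD2 and SMAD3, of the activin and TGF-beta branch, shared 75, 213 and 138 bases, against 6 shared lengths in the mouse. SMAD1 lacked the 5′ side (64.6% of the mouse, mouse exons 3 to 6 matched), and SMAD3 (135%) ended in an exon of 668 bases, against 124 in the mouse. SMAD4, the common partner, had 11 exons as in the mouse, 8 of them of equal length, and SMAD5 had 6, with 5 of equal length.

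Of the 5 inhibitors, 4 had under 90% of the model aligned to the named transcript. FST, follistatin, which binds activins, had exons of 502, 219, 225, 231 and 83 bases on scaffold 8, against 85, 192, 219, 225, 231 and 83 in the mouse, so that 4 exons matched and the first 309 bases lay outside the aligned part (122% of the mouse). FSTL3, a follistatin-like protein, had 119% with 416 such bases. SMAD6, which blocks BMP receptor signalling, had 5 exons and 576 bases (38.7%), and 24.1% of that model aligned. SMAD7, which blocks TGF-beta receptors, had 99.3% of the mouse length in 7 exons, against 4.

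LEFTY2 and LEFTY1 oppose NODAL; talOcc3 had 2 models named LEFTY2 and none named LEFTY1. The best LEFTY2 model, at 50760913 to 50763114 on scaffold 14, had exons of 250, 247, 243 and 364 bases, against 250, 247, 246 and 364 in mouse Lefty2. The other one, at 50803141 to 50810382, had 7 exons and 2133 bases and 56.2% of the best model's score, and only its last exon of 364 bases matched. Near-identical copies can exchange names, so these labels are uncertain, as are those of BMP8A and BMP8B.

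Exon by exon, 199 of 331 mouse coding exons, or 60.1%, had an exon of exactly the same length in the mole, in order, against 67.6% over all symbols. The share was 33.0% in ligands, 72.6% in receptors, 76.6% in SMADs and 47.8% in inhibitors, and BMP1 matched 19 of 20. First and last exons hold the ends of the protein, and most ligands have little else. Over inner exons alone the share was 73.5% in members and 75.1% in all symbols, with 24 of 48 in ligands, 78.0% in receptors (85 of 109) and 82.9% in SMADs (29 of 35). The last exon had the mouse length in 26 members, or 48.1%, against 40.7% of all symbols, which held for 10 of 13 receptors, 5 of 6 SMADs and 8 of 29 ligands.

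**Figure D2:**
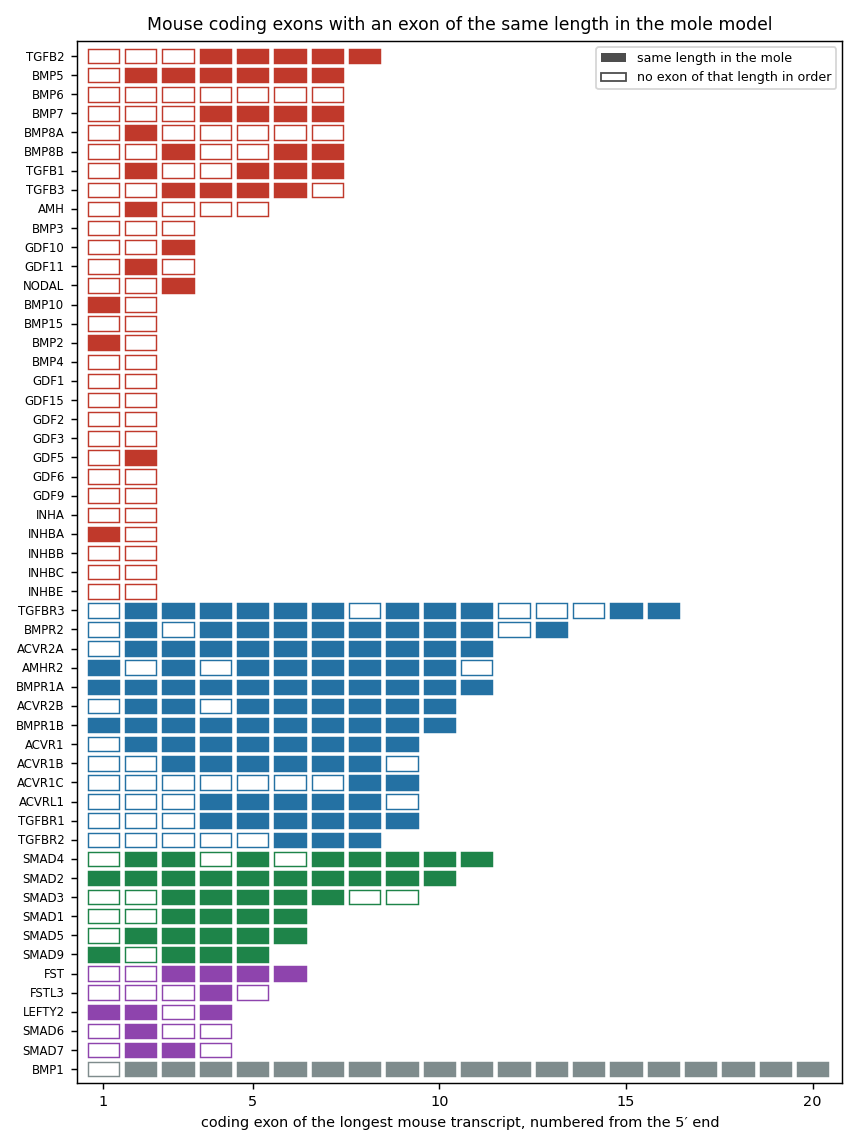
Each row is a member and each box a coding exon of its longest mouse transcript, numbered from the 5′ end; a filled box has an exon of exactly the same length, in order, in the mole model. Receptors and SMADs are mostly filled, with 72.6% and 76.6% of boxes, and ligands mostly open, with 33.0% filled.

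The median pathway gene had more space around it than the median gene. Space is the distance to the nearest other model on each side, summed. Its median was 91.7 kb in members (interval 53.0 to 227 kb) and 49.9 kb over all symbols (48.3 to 51.2 kb). In the mouse, where only coding genes were counted as neighbours, the median was 98.2 kb for members and 50.3 kb over all genes. More space in the mole than in the mouse was found for 33 of 54 members, or 61.1%, against 45.4% of all genes. Median space was 77.3 kb in ligands, 107 kb in receptors, 147 kb in SMADs and 102 kb in inhibitors. To the nearest models on the same strand the median was 224 kb in members and 141 kb over all symbols, and the larger side alone gave 57.6 kb in members and 37.6 kb over all symbols. At least 500 kb surrounded 7 members, or 13.0% (all symbols 5.78%).

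Those 7 were 4 ligands, 2 receptors and a SMAD. BMP2 had 1357 kb in the mole and 1549 kb in the mouse. INHBA, between GLI3 and SUGCT, had 1128 kb in the mole and 1121 kb in the mouse. BMP4 had 699 kb in the mole and 375 kb in the mouse. GDF6, a ligand of joint and skull formation, had 660 kb in the mole and 1190 kb in the mouse. ACVR2A had 619 kb in the mole, with a PPIA model 612 kb to its left, and 3710 kb in the mouse. SMAD2 had 562 kb in the mole and 670.0 kb in the mouse, and BMPR1B 555 kb in the mole and 374 kb in the mouse. BMP2 and INHBA thus held nearly the same space in both species, and ACVR2A did not. The PPIA model has 1 exon, as have CYCS beside BMP4 and SPRYD7 beside GDF6, whereas mouse space counts coding genes only. Both neighbours of ACVR2A among genes named in both species, ZEB2 and ORC4, were kept. Whether such models account for the differences in space was not tested.

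The least space lay around INHBC (mole 4.54 kb, mouse 53.9 kb), INHBE (mole 5.41 kb, mouse 17.3 kb) and GDF1 (mole 7.65 kb, mouse 18.2 kb) among ligands. Among receptors it lay around AMHR2 (mole 27.3 kb, mouse 20.1 kb), ACVR2B (mole 35.5 kb, mouse 22.3 kb) and ACVRL1 (mole 43.9 kb, mouse 45.6 kb), and most lay around ACVR2A, BMPR1B and TGFBR2 (mole 488 kb, mouse 420 kb). SMAD5 had 14.8 kb in the mole, where a model named SMAD5-AS1 lay 0.860 kb away, against 100.3 kb in the mouse. The other SMADs were SMAD9 (mole 65.9 kb, mouse 40.0 kb), SMAD4, beside a model named RPL12 (mole 66.5 kb, mouse 110 kb), SMAD1 (mole 227 kb, mouse 326 kb) and SMAD3 (mole 379 kb, mouse 206 kb). Inhibitors had the most space at SMAD6 (mole 486 kb, mouse 292 kb), FST (mole 313 kb, mouse 425 kb) and SMAD7 (mole 102 kb, mouse 123 kb), and less at LEFTY2 (mole 36.4 kb, mouse 33.5 kb) and FSTL3 (mole 14.8 kb, mouse 12.3 kb). AMH had 18.1 kb in the mole and 1.36 kb in the mouse, where JSRP1 lies beside it. TGFB2 had 147 kb in the mole and 525 kb in the mouse, and TGFB3 92.9 kb in the mole and 9.27 kb in the mouse. On 1 side the nearest mole model had no symbol, 83.0 kb from TGFB2 and 53.3 kb from TGFB3. The mole space of INHBC and INHBE depends on the INHBE start, where 915 bases facing INHBC lay outside the aligned part. Models of 1 exon bounded the mole space of INHBC (RPL11), SMAD4 (RPL12), SMAD5 (LOC389332), SMAD7 (DYM) and TGFB2 (the model without a symbol) on 1 side.

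**Figure D3:**
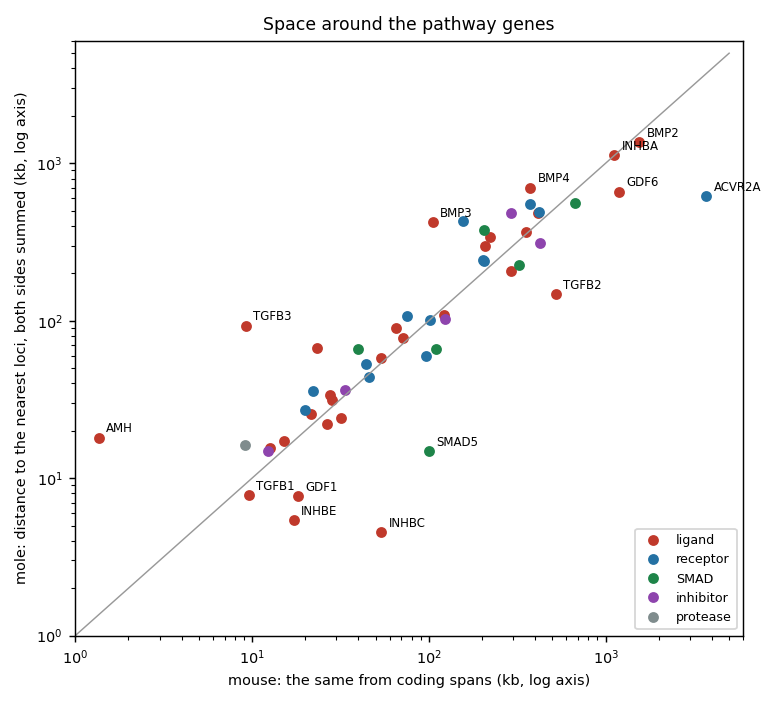
Space around each member in the mole (vertical) against the mouse (horizontal), both in kb on log axes, coloured by role; the line marks equal space. Most members lie near the line, with AMH and TGFB3 far above it and INHBC, SMAD5 and ACVR2A far below. Mole neighbours are all models and mouse neighbours coding genes only.

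Gene order around the members was kept at nearly the same share as around other genes. Among genes named a single time in both annotations, 46 of 52 members, or 88.5%, had the same neighbours on both sides as in the mouse, in the same relative orientation, against 88.4% of all such genes. None of the 52 had lost both neighbours, as 280 of the 12225 genes over all symbols had. Against the later mole assembly, where orientation was not compared, 48 of 49 members kept both, or 98.0%, where 93.4% of genes did. The shares for the mouse and for the later assembly thus rest on unlike criteria.

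The 6 members that kept a single mouse neighbour were ACVR2B, BMP5, BMP8A, BMP8B, BMP15 and GDF6. Among genes named in both species, ACVR2B followed SLC22A14 in the mole, with MYD88, OXSR1 and SLC22A13 before it, while mouse Acvr2b followed Slc22a13, Oxsr1 and Myd88 in that order. BMP5 lay between HMGCLL1, which it kept, and DST on scaffold 7, and its mouse neighbour SCG3 was on scaffold 16. GDF6 had MTERF3 as such a neighbour on scaffold 22, and its mouse neighbour CLVS1 was on scaffold 20. BMP15 kept NUDT11 beside it with another orientation of the pair, and it counts as kept when orientation is ignored.

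BMP8A and BMP8B, closely related ligands expressed in germ cells of the mouse testis, flank a segment whose order differed as a block. On talOcc3 scaffold 2 the order was TRIT1, BMP8B, PABPC4, HEYL, NT5C1A, HPCAL4, PPIE, BMP8A and MACF1. In the mouse the 5 genes between the BMP8 genes ran the other way, as Ppie, Hpcal4, Nt5c1a, Heyl and Pabpc4, each on the opposite strand. The later mole assembly has the mouse order, with PABPC4 on the BMP8A side, and PPIE followed by a gene without a symbol and TRIT1. The distance between BMP8B and BMP8A was 158 kb in talOcc3 and 189 kb in the mouse. The cause of the difference between the mole assemblies was not tested. Both BMP8 models differed from the mouse in structure: BMP8A had 4 exons, against 7, with 29.6% of the model aligned, and BMP8B had 7 exons, against 7, with 3 of equal length and 73.7% aligned.

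**Figure D4:**
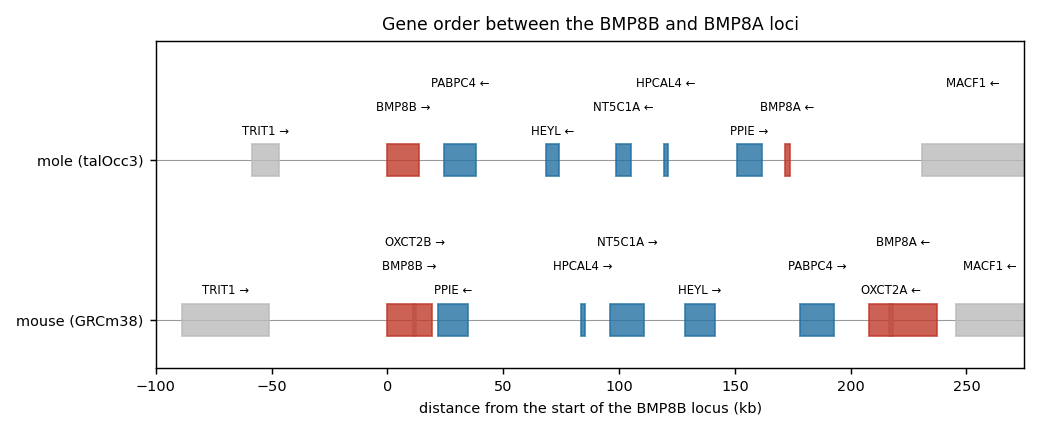
The segment from TRIT1 to MACF1 in the mole (above) and the mouse (below), in kb from the start of BMP8B; boxes are gene spans to scale, arrows the strand, and MACF1 is cut at the right edge. The 5 genes in blue stand in reversed order between BMP8B and BMP8A in talOcc3, 158 kb apart, relative to the mouse, 189 kb apart.

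The 54 members lay on 23 scaffolds, up to 7 on a scaffold. Scaffold 34 held GDF3, ACVRL1, ACVR1B, AMHR2, GDF11, INHBC and INHBE, and scaffold 1 held INHBB, ACVR2A, ACVR1C, ACVR1, TGFB2, BMP1 and SMAD1. At most 10 other models separated 9 pairs of member loci, of which the 2 pairs of GDF5 and of LEFTY2 loci joined models of the same symbol. The other 7 all lay on 1 mouse chromosome, where 93.8% of all such gene pairs do.

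INHBC and INHBE, both expressed mainly in liver, lay 0.071 kb apart in the mole and 5.54 kb apart in the mouse. On the side facing INHBC, 915 bases of the INHBE model lay outside the part aligned to its named transcript. The mole distance therefore depends on a model start that the alignment does not cover. GDF2, also called BMP9, and GDF10 lay 4.94 kb apart in the mole, against 6.64 kb in the mouse. The type I receptors ACVRL1 and ACVR1B lay 42.1 kb apart in the mole, against 30.7 kb in the mouse, and ACVR1C and ACVR1 152 kb in the mole, against 89.9 kb in the mouse. SMAD3 lay 367 kb from the inhibitory SMAD6 in the mole, against 196 kb in the mouse, and SMAD7 795 kb from SMAD2 in the mole, against 868 kb in the mouse. Each of these pairs kept its relative strand. Of 78 pairs of different member genes on 1 scaffold at any distance, 25 also shared a mouse chromosome. The share over all gene pairs on 1 scaffold was not computed, and the 93.8% given above covers only pairs at most 10 models apart. FSTL3 and AMH lay 1189 kb apart in the mole and 1024 kb in the mouse, whereas GDF5 and BMP2 lay 3676 kb apart in the mole, against 22380 kb in the mouse.

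**Figure D5:**
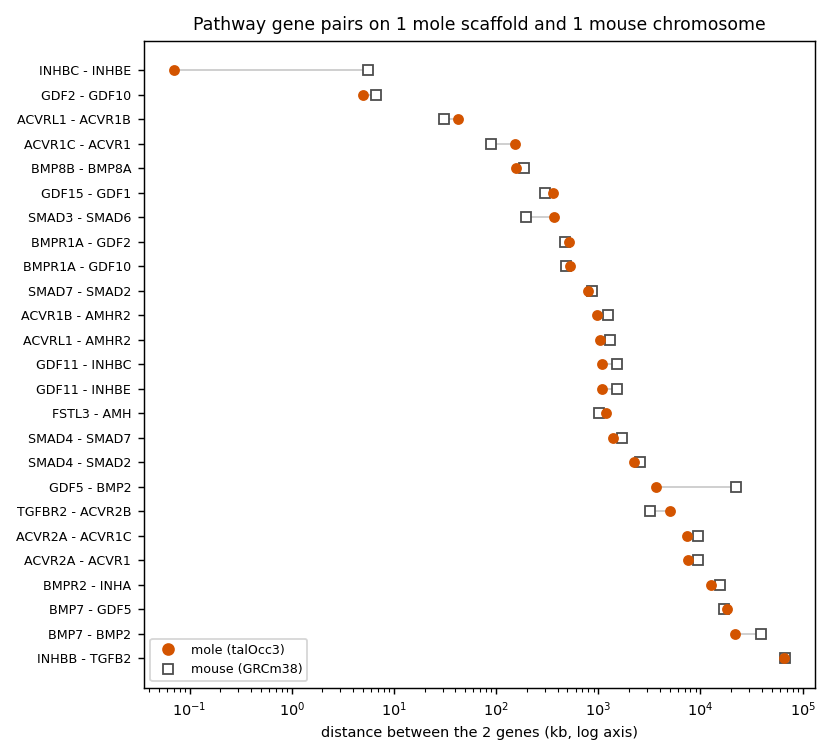
Distance between member genes that share a mole scaffold and a mouse chromosome (25 pairs), in kb on a log axis; filled circles are the mole, open squares the mouse. Most pairs lie at like distances, while INHBC and INHBE, at 0.071 kb and 5.54 kb, and GDF5 and BMP2, at 3676 kb and 22380 kb, are far apart on the axis. The mole distance of INHBC and INHBE ends at a part of the INHBE model outside its alignment.

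Of 43 other genes of the pathway, 36 had a mole model: 13 of 14 secreted antagonists, 7 of 7 latency-binding proteins, 4 of 7 co-receptors, 8 of 9 intracellular regulators, 3 of 5 target genes, and MSTN, a ligand whose name the member rule does not cover. No model carried the names NOG, TDGF1, CFC1, HJV, SKI, ID2 or ID4, of which 6, all but CFC1, are named in the later mole assembly. Among symbols named as coding genes in both the mouse and the later assembly, 36 of 41 listed genes had a talOcc3 model, or 87.8%, against 92.0% of all such symbols. Their median coding length was 99.2% of the mouse and their median space 99.9 kb in the mole and 77.5 kb in the mouse. CER1, an antagonist of NODAL and BMPs, matched the mouse in both of its exons. DAND5, another NODAL antagonist, had 327% of the mouse length in 5 exons, against 2. LTBP3, which anchors latent TGF-beta, had 49.4%, and SKIL, a repressor of SMAD signalling, 46.1%.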

How the data were processed

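No per-library values were used, and 0 columns of per-sample values were left aside. The deposited file holds gene models on talOcc3 with positions in bases and, on transcript lines, a score the authors give with no stated scale; model kinds are EVM, exonerate and ALN, their making being not given in the sources used here. STAR 2.6.1d and the build mm9 are named in the submitters' processing notes, with no role. Symbols were names without the low-confidence mark or copy number, and the locus of highest score stood for a symbol. Coding exons, stop codon included, were set beside the longest coding transcript in GENCODE M21 (GRCm38); equal means the same number of bases, tolerance 0, in the same order. A later mole gene table, MPIMG_talOcc4v2.1, was used for names and order only. Mouse space was taken between coding spans of coding genes and mole space between all models, so levels differ in definition. Intervals are order-statistic for medians and exact binomial for shares; they describe genes, not samples. Python 3.11.15, numpy 2.4.6 and scipy 1.17.1 were used, and the functions were tested on simulated exon losses, inversions and distances. The members and lists were chosen with earlier results of these data known. Genes named are AMH, AMHR2, INHA, INHBA, INHBB, FST, BMP2, BMP4, BMP15 and GDF9, members with 0 or several loci, the 3 with most and least space in each role, the 5 shortest and longest against the mouse, members keeping a single neighbour and close pairs; other names were added after their values were seen. The alternatives were other loci, transcripts, neighbours and distances. Identities between ligand proteins were not analysed here. The gene order around LEFTY2 is not reported here.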

Additional observations from a re-analysis of the deposited data

How the results depend on the processing

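Members with several loci fell to 1 of 54 when copy suffixes were kept apart, when a locus needed at least 50% of the highest score (LEFTY2 then stayed), and when it needed more than 1 exon; it was 2 with at least 300 coding bases. The other main values stayed within 1.5 times, or for medians within the interval given: median coding length equalled the mouse with the nearest mouse transcript, median space 224 kb with same-strand neighbours, 101 kb with named neighbours and 57.6 kb for the larger side, members keeping both neighbours 47 with orientation ignored, and close pairs 13 within 1000000 bases. Median space counts as kept only because its interval is wide (91.7 kb, 53.0 to 227 kb). Over all symbols the median of 49.9 kb moved, to 141 kb with same-strand neighbours and 37.6 kb for the larger side. Of 379 alternative values, 323 kept their place and 56 moved. Many of the 323 could not move, so the tally does not measure stability. The longest locus is the same locus for a member with 1 locus, and 66 of its values stayed. No member lay on a scaffold annotated to less than 1000000 bases, and all 60 values of that alternative stayed. With the nearest mouse transcript BMP6 (102%), ACVR1C (198%) and SMAD6 (211%) turned from shorter to longer than the mouse, since short annotated transcripts then stand for those genes, and ACVR1C passed ACVRL1 (196%). No paired analysis was possible because gene models have no replicates. The comparison of ligand protein ends was not run, with no mole protein sequence used here. Depth is unknown, so no limit from depth can be given.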
